A study of Homo sapiens with 192 samples.

Results

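ATF4 and 9 genes of the amino acid stress response were followed in human CRC cell lines under 2D and 3D growth. The 10 genes were chosen by name, as ATF4, ATF3, DDIT3, TRIB3, CHAC1, ASNS, PSAT1, PHGDH, SLC7A11 and SESN2, without a threshold on their values. The choice was made with earlier results of these data known, so their counts beside the shares of all tested genes are descriptive. All 10 were found by Ensembl identifier among the 58243 genes listed in the counts, and all 10 were among the 19387 genes tested.

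ATF4 is a transcription factor that cells make when amino acids run short or when other stresses phosphorylate the translation initiation factor eIF2α. General protein synthesis then slows, while the mRNA of ATF4 is translated better, and ATF4 protein switches on genes for amino acid uptake, amino acid synthesis and tRNA charging. The response also has members that limit growth or promote cell death, of which the transcription factor DDIT3, also called CHOP, is the best known. Since ATF4 is regulated largely at translation, the amount of its mRNA does not measure the amount of its protein, which was not measured here.

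The lines HT29, LS513, HCT116 and LS174T are established human colorectal carcinoma lines, each with 3 libraries from 2D growth and 3 from 3D growth, and the labels name no drug or genetic change. HCT116 was kept in McCoy medium and the other lines in DMEM, both with serum, so that for HCT116 line and medium cannot be told apart. How the 3D cultures were set up for RNA, and how long they were grown, is not given in the sources used here. Whether the libraries of a group came from separate cultures is not stated either, so the p-values measure the spread between these libraries only. Levels are given in CPM on the TMM scale, that is, as counts divided by a library total that was adjusted so that most genes do not shift between libraries. Adjusted p-values come from the quasi-likelihood test of edgeR, fitted to all 24 libraries and adjusted by the Benjamini-Hochberg method for 19387 tests, and a gene was called when this value was under 0.05. A log2 fold change above 0 means a higher level in 3D.

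Library totals ranged from 18723942 to 34277421 counts, and the floor of 3 counts lay between 0.0875 and 0.160 CPM, under every value of the 10 genes. Epithelial markers were present in every library, with EPCAM between 257 and 1816 CPM and KRT8 between 1103 and 9227 CPM. CDX1 was at 0 counts in at least 1 library and VIL1 went down to 0.133 CPM, so not every intestinal marker was present in every line. Of the markers of other cell types, COL1A1 reached 655 counts (21.8 CPM), CD14 501, PECAM1 76, VWF 22 and PDGFRB 21. CDH5 had at most 5 counts, PTPRC, DCN and LUM had at most 2, and CD3E and COL1A2 had 0 in all libraries. The list of 4 immune markers nevertheless summed to 18.0 to 20.5 CPM in LS513 2D and 61.7 to 91.9 CPM in LS513 3D, and nearly all of it was CD68, a lysosomal gene that epithelial cells also express. The summed list also went from 9.81 to 14.9 CPM in 2D up to 21.3 to 30.5 CPM in 3D in HT29, from 9.20 to 13.5 up to 36.1 to 47.2 CPM in HCT116, and from 2.08 to 3.83 up to 5.07 to 6.56 CPM in LS174T. CD68 was called higher in 3D in all 4 lines and CD14 in HT29, and their part in the results was not tested, while PTPRC, the defining marker of blood cells, was at or near 0 in every library. The 5 fibroblast markers summed to at most 22.1 CPM, in HCT116 3D, with none called in any line. The 3 endothelial markers summed to at most 2.38 CPM, with 1 called higher in LS513 and 1 in HCT116. In bulk samples, a change in the share of cells that express a gene and a change in the RNA per cell cannot be told apart.

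The genes lie on 8 chromosomes of GRCh38 by GENCODE 29, and their counts were made over exons. The regulators are ATF4 (ENSG00000128272, chr22:39519695-39522685, plus strand), ATF3 (ENSG00000162772, chr1:212565334-212620777, plus strand) and DDIT3 (ENSG00000175197, chr12:57516588-57521737, minus strand). The stress effectors are TRIB3 (ENSG00000101255, chr20:362835-397559, plus strand), CHAC1 (ENSG00000128965, chr15:40952962-40956519, plus strand) and SESN2 (ENSG00000130766, chr1:28259527-28282491, plus strand). The enzymes are ASNS (ENSG00000070669, chr7:97852118-97872542, minus strand), PSAT1 (ENSG00000135069, chr9:78297143-78330093, plus strand) and PHGDH (ENSG00000092621, chr1:119648411-119744226, plus strand). SLC7A11, the transporter (ENSG00000151012, chr4:138164097-138242349, minus strand), completes the group.

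Some of these counts could hold reads of neighbours. ASNS shares 44.6% of its exonic bases with AC079781.5 on the same strand, and the counts of AC079781.5 were between 99.2% and 103% of those of ASNS in every library, so the reads of these genes cannot be told apart. DDIT3 shares 31.6% of its exonic bases with genes on the opposite strand and 8.03% with AC022506.1 on its own strand. The library kit keeps the strand, and SLC7A11-AS1, which lies opposite to 8.97% of the exonic bases of SLC7A11, had between 0 and 6 counts where SLC7A11 had between 656 and 3441. ATF4, ASNS and PSAT1 each have 4 annotated pseudogenes named after them, and reads that matched more than 1 place in the genome had been removed before counting.

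ATF4 acts on many of its targets with a partner of the C/EBP family at a composite DNA element, here searched for as TGATGNAAN on both strands, where N is any base. The search covered the 250 bases before each annotated start in the RefSeq promoter windows (GRCh38.p14). Windows were found for 9 of the 10 genes, all but SLC7A11, and ATF3, CHAC1 and ASNS each had 1 window with 1 match. ATF3 and ASNS each have a further window, from another RefSeq start, that held no match. The same letters were found in 1100 of 35116 windows of that length, or 3.13%, a share counted by window and not by gene. The matches are printed, with 10 bases on each side, to show the element as it stands in these genes, and capitals mark the letters that matched. The sequence of CHAC1 carries the element in the opposite orientation, so that its capitals are the reverse complement of the searched letters. Counted from the RefSeq start, the match in ATF3 lies at -191 to -183 (chr1:212565206-212565234, plus strand). That in CHAC1 lies at -210 to -202 (chr15:40953251-40953279, plus strand) and that in ASNS at -68 to -60 (chr7:97872458-97872486, minus strand). RefSeq and GENCODE 29 starts differ here, and by the GENCODE positions given above the matches in CHAC1 and ASNS lie inside the gene.
ATF3: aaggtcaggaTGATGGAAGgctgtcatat
CHAC1: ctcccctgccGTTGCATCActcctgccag
ASNS: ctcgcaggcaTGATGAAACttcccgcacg

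The promoter of ASNS is a textbook case of amino acid control, in which this element is followed by a short second element, GTTACA, and both are needed for the response to amino acid limitation. The 100 bases that hold both (chr7:97872409-97872508, minus strand) are printed 5′ to 3′, with both elements in capitals. GTTACA lies at -48 to -43 from the same RefSeq start. Searched on both strands, these 6 letters were found in 1964 of 35116 windows, or 5.6%. A match describes letters only, and these libraries do not measure binding.
ASNS promoter: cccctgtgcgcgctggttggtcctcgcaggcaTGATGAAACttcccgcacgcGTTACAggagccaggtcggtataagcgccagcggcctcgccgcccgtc

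Growth in 3D moved these genes differently in the 4 lines. In LS513, 9 of the 10 genes were higher in 3D and none was lower, where 13.7% of all tested genes were called higher and 9.9% lower. In LS174T 4 genes were higher and none was lower, beside 13.1% and 9.15% of all genes. HCT116 had 3 higher and 1 lower, beside 16.8% and 12.3%. HT29 had 2 higher and 4 lower, beside 21.1% and 19.6%. The median log2 fold change of the 10 genes was 1.41 in LS513, 0.37 in LS174T, 0.28 in HCT116 and -0.21 in HT29, while the median over all tested genes was between 0 and 0.02 in each line. In LS513 all 3D libraries lay above all 2D libraries for each of the 10 genes, which was so for 23% of all tested genes, while 20% lay below. In LS174T this held for 6 genes above and 0 below (20.9% and 17.6% of all genes), in HCT116 for 4 above and 1 below (22.8% and 17.6%), and in HT29 for 2 above and 4 below (27.3% and 25.6%).

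Of the 23 calls, 15 held under all of the alternatives tried: 8 in LS513, 4 in HT29, 2 in LS174T and 1 in HCT116. The calls that did not hold are named beside their values.

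**Figure D1:**
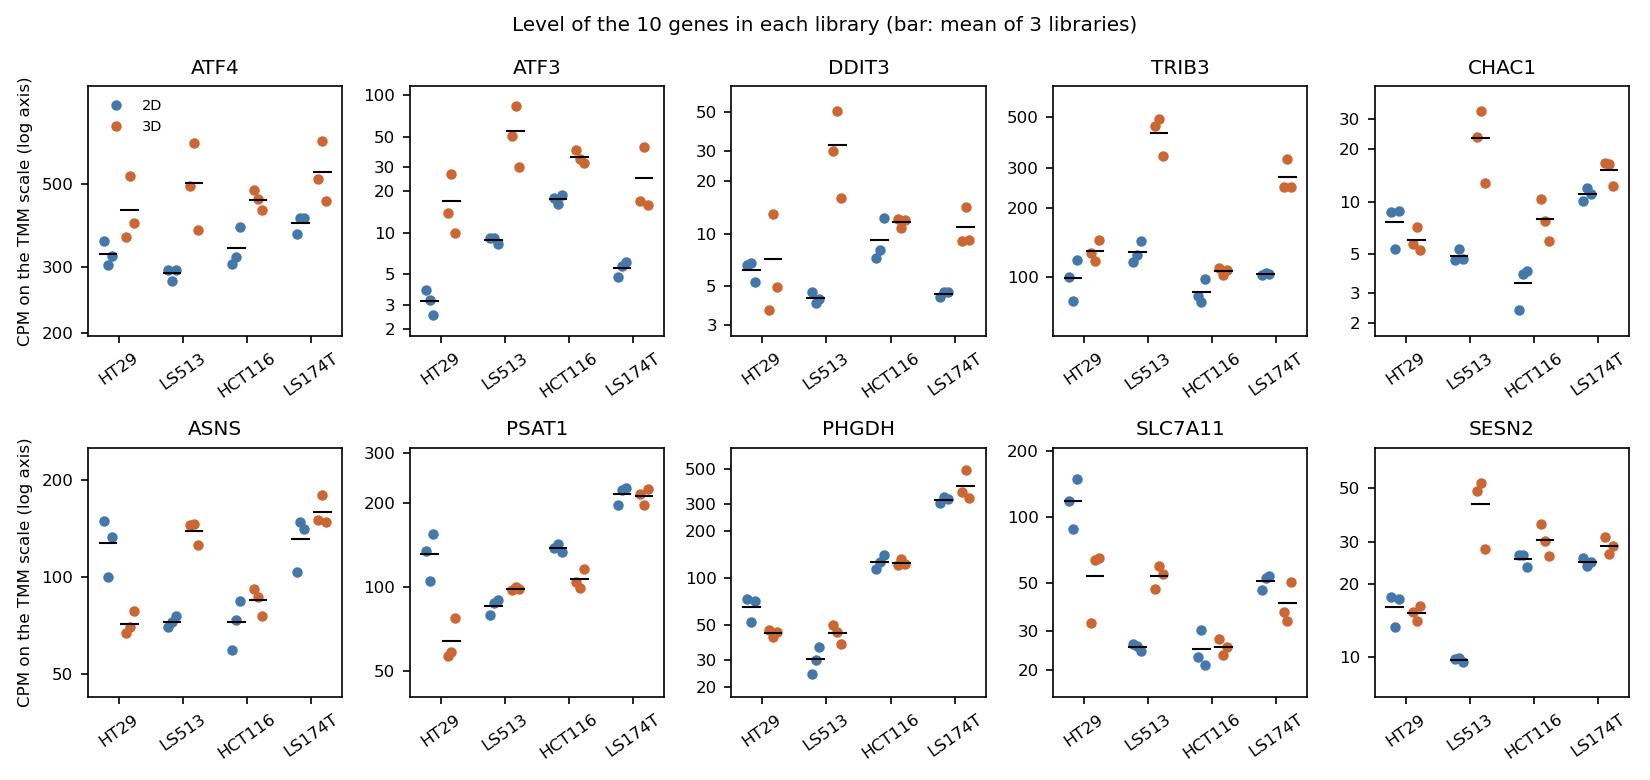
CPM on the TMM scale (log axis) of each of the 10 genes in each library, with 1 panel per gene, the 4 lines on the horizontal axis, 2D in blue and 3D in orange, and a bar at the mean of 3 libraries. The 3D libraries of LS513 lie above its 2D libraries in every panel, whereas ASNS, PSAT1, PHGDH and SLC7A11 are lower in 3D in HT29.

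Per kilobase of exonic sequence, ATF4 had the highest group means of the 10 genes, between 115 and 214 CPM per kilobase. ATF3 had the lowest group mean, 0.795 CPM per kilobase in HT29 2D, and reached 13.5 in LS513 3D. Between the lowest and the highest of the 8 group means in CPM, ATF4 varied least, by 1.87-fold, and ATF3 varied most, by 16.98-fold. PHGDH followed with 12.9-fold, then DDIT3 with 7.49-fold, CHAC1 with 6.82-fold, TRIB3 with 4.96-fold, SLC7A11 with 4.76-fold, SESN2 with 4.44-fold, PSAT1 with 3.34-fold and ASNS with 2.22-fold. ATF4 thus varied less over the groups than the other 9 genes.

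ATF4 itself was higher in 3D in LS513, from 295, 276 and 295 CPM in the 2D libraries to 495, 642 and 376 CPM in the 3D libraries (log2 fold change 0.81, SE 0.16, edgeR adjusted p = 0.000628). The 3D libraries were all above the 2D libraries, and they also lay further apart from each other than the 2D libraries did. In LS174T the 2D libraries held 369, 405 and 407 CPM and the 3D libraries 515, 652 and 449 CPM (log2 fold change 0.45, SE 0.16, edgeR adjusted p = 0.0408). In HCT116 the values were 306, 320.2 and 383 CPM in 2D and 481, 456 and 425 CPM in 3D (log2 fold change 0.43, SE 0.16, edgeR adjusted p = 0.0409). Both lines showed no overlap between growth conditions, but both calls were close to the threshold. Without 1 library, the call in HCT116 was lost in 5 of 6 cases (highest edgeR adjusted p = 0.161, without 2D replicate 1), as it was in LS174T in 5 of 6 (highest edgeR adjusted p = 0.246, without 3D replicate 2). In HT29 the libraries held 352, 305 and 320.3 CPM in 2D and 360.5, 524 and 392 CPM in 3D and did not overlap, and the difference missed the threshold (log2 fold change 0.39, SE 0.16, edgeR adjusted p = 0.0529), though it passed it with DESeq2 (adjusted p = 0.0331). The growth effect on ATF4 was not shown to differ between the lines (edgeR interaction test, adjusted p = 0.447).

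ATF3, a stress-induced transcription factor of the same bZIP family, was higher in 3D in all 4 lines. HT29 went from 3.84, 3.27 and 2.52 CPM in 2D to 13.9, 26.9 and 9.94 CPM in 3D (log2 fold change 2.37, SE 0.40, edgeR adjusted p = 8.40e-05). LS513 went from 9.203, 9.12 and 8.3 CPM to 50.3, 83.1 and 30.2 CPM (log2 fold change 2.62, SE 0.37, edgeR adjusted p = 2.23e-05). No 3D library of either line fell within the 2D range, and the highest 3D library stood well above the other two in both. In LS174T the levels were 4.81, 5.74 and 6.13 CPM in 2D and 17.1, 41.7 and 16 CPM in 3D (log2 fold change 2.16, SE 0.37, edgeR adjusted p = 0.000343). HCT116 had the highest 2D level of ATF3, 17.9, 16.3 and 18.96 CPM, and 39.9, 34.3 and 32.1 CPM in 3D (log2 fold change 1.00, SE 0.35, edgeR adjusted p = 0.0345). Its 3D libraries agreed closely among themselves, and its change was the smallest of the 4. This call was lost when any single HCT116 library was left out (edgeR adjusted p between 0.05003 and 0.115). The growth effect on ATF3 was not shown to differ between the lines (edgeR interaction test, adjusted p = 0.0868).

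DDIT3, which acts downstream of ATF4 and is known for promoting cell death under lasting stress, had the largest fold change of the 10 genes in LS513. There it went from 4.63, 3.99 and 4.25 CPM in 2D to 29.9, 50.3 and 16.1 CPM in 3D, or 7.48-fold (log2 fold change 2.90, SE 0.38, edgeR adjusted p = 8.26e-06). The lowest 3D library was still above the 2D libraries by a wide margin. Without 3D replicate 2, the highest library, the change was 5.35-fold. In LS174T DDIT3 went from 4.37, 4.61 and 4.62 CPM to 9.14, 14.3 and 9.21 CPM (log2 fold change 1.26, SE 0.37, edgeR adjusted p = 0.0191). The growth conditions did not overlap in LS174T, but the call was lost in 4 of 6 cases when a library was left out (edgeR adjusted p between 0.0557 and 0.137). In HT29 the 3D libraries held 3.65, 13 and 4.97 CPM and spanned the 2D libraries at 6.58, 6.78 and 5.31 CPM. Replicate 3 alone stood above 2D there, and the log2 fold change of 0.20 with all libraries was -0.50 without it, neither past the threshold. In HCT116 the libraries overlapped, at 7.31, 8.11 and 12.4 CPM in 2D and 12.2, 10.8 and 12.1 CPM in 3D (95% interval of the log2 fold change -0.40 to 1.07). The growth effect on DDIT3 differed between the lines (edgeR interaction test, adjusted p = 0.00191).

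TRIB3 encodes a pseudokinase that binds the kinase AKT and feeds back on ATF4, and it was called higher in 3 lines. In LS513 it went from 116, 126 and 145 CPM in 2D to 456, 489 and 339 CPM in 3D (log2 fold change 1.73, SE 0.15, edgeR adjusted p = 1.47e-08). LS174T went from 103, 105 and 103 CPM to 248, 328 and 249 CPM (log2 fold change 1.41, SE 0.15, edgeR adjusted p = 5.19e-07). In both lines the lowest 3D library stood far above the highest 2D library. In HT29 the libraries held 100.1, 78.6 and 119 CPM in 2D and 127, 118 and 145 CPM in 3D and overlapped, and the call (log2 fold change 0.39, SE 0.15, edgeR adjusted p = 0.0349) was lost without 2D replicate 2 (edgeR adjusted p = 0.146) or 3D replicate 4 (edgeR adjusted p = 0.0998). In HCT116 the values were 83.3, 77.96 and 97.9 CPM in 2D and 109.7, 102 and 107 CPM in 3D, which did not overlap and did not pass the test (log2 fold change 0.30, SE 0.14, edgeR adjusted p = 0.124).

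CHAC1, an enzyme that breaks down glutathione, was higher in 3D in LS513 and HCT116. LS513 went from 4.601, 5.35 and 4.72 CPM in 2D to 23.5, 33.1 and 12.9 CPM in 3D (log2 fold change 2.24, SE 0.27, edgeR adjusted p = 2.29e-06). In HCT116 the change was from 2.39, 3.82 and 3.98 CPM to 10.3, 7.78 and 5.92 CPM (log2 fold change 1.24, SE 0.28, edgeR adjusted p = 0.00187), and this was the HCT116 call that held under every alternative. No 3D library of either line fell within the 2D range. HT29 libraries overlapped, at 8.71, 5.33 and 8.82 CPM in 2D and 5.73, 7.12 and 5.26 CPM in 3D (95% interval of the log2 fold change -0.89 to 0.23). LS174T had the highest 2D level, 11.03 ± 0.918 CPM (mean ± SD, n = 3), and 15.2 ± 2.42 CPM in 3D, a difference that did not pass the test (log2 fold change 0.46, SE 0.26, edgeR adjusted p = 0.201).

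SESN2 encodes sestrin 2, a leucine-binding protein that restrains growth signalling when amino acids are scarce. In LS513 it went from 9.81, 9.82 and 9.504 CPM in 2D to 48.5, 52.7 and 28.03 CPM in 3D (log2 fold change 2.15, SE 0.17, edgeR adjusted p = 6.19e-09). LS513 had the lowest SESN2 level of the lines in 2D and the highest in 3D. In the other lines SESN2 did not pass the test. The 2D and 3D means were 16.1 ± 2.43 and 15.2 ± 1.11 CPM in HT29, 25.4 ± 1.72 and 30.6 ± 4.79 CPM in HCT116, and 24.7 ± 0.842 and 28.9 ± 2.26 CPM in LS174T (mean ± SD, n = 3). The 95% intervals of the log2 fold change were -0.43 to 0.26, -0.07 to 0.60 and -0.11 to 0.56 in these lines, all below that of LS513, which was 1.80 to 2.5.

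Of the genes for amino acid synthesis and cystine uptake, ASNS, PHGDH and SLC7A11 fell in HT29 and rose in LS513, and PSAT1 fell in HT29 and HCT116. ASNS, the enzyme that makes asparagine, fell in HT29 from 149, 99.9 and 133 CPM in 2D to 67.1, 69.9 and 78.2 CPM in 3D (log2 fold change -0.83, SE 0.15, edgeR adjusted p = 0.00011). In LS513 it rose from 70.1, 72.3 and 75.9 CPM to 145, 146 and 125 CPM (log2 fold change 0.93, SE 0.15, edgeR adjusted p = 5.71e-05). The libraries of 2D and 3D did not overlap in either line, and LS513 3D reached about the level that HT29 had in 2D, with means of 139 ± 11.7 and 127 ± 25.1 CPM. In HCT116 the libraries held 59.5, 73.8 and 84.4 CPM in 2D and 91.8, 86.6 and 75.98 CPM in 3D. In LS174T they held 104, 149 and 141 CPM and 150.4, 180.1 and 148 CPM. Both of these lines overlapped between growth conditions and did not pass the test (edgeR adjusted p = 0.259 and 0.163). As ASNS cannot be separated from AC079781.5, these values hold for the reads of both.

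PHGDH catalyses the first step of serine synthesis from glucose, and PSAT1 the step after it. PSAT1 fell in HT29 from 134, 104 and 155 CPM in 2D to 56.4, 58.3 and 77.6 CPM in 3D, to 0.489 of its 2D level (log2 fold change -1.03, SE 0.12, edgeR adjusted p = 8.46e-07). It also fell in HCT116, from 138, 143 and 133 CPM to 104, 99.2 and 116 CPM (log2 fold change -0.38, SE 0.12, edgeR adjusted p = 0.0206), and this call was lost in 4 of 6 cases when a library was left out (highest edgeR adjusted p = 0.0743). The 3D libraries were below all 2D libraries in both lines. In LS513 PSAT1 was the only one of the 10 genes that did not pass the test, at 79.5, 87.9 and 89.4 CPM in 2D and 97.3, 100.2 and 98.2 CPM in 3D (log2 fold change 0.20, SE 0.12, edgeR adjusted p = 0.24). These LS513 libraries did not overlap, and the 3D libraries lay close together. In LS174T, which had the most PSAT1 of the lines, the means were 214 ± 15.3 CPM in 2D and 212 ± 13.9 CPM in 3D (mean ± SD, n = 3), with a 95% interval of the log2 fold change of -0.26 to 0.23.

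PHGDH fell in HT29 from 73.97, 52.4 and 71.1 CPM in 2D to 46.6, 42.2 and 45.6 CPM in 3D (log2 fold change -0.55, SE 0.15, edgeR adjusted p = 0.00557), a call that was lost without 2D replicate 1 (edgeR adjusted p = 0.062). In LS513 it rose from 24.3, 30.03 and 36.5 CPM to 49.9, 45.1 and 37.9 CPM (log2 fold change 0.55, SE 0.15, edgeR adjusted p = 0.0109), which was lost without 2D replicate 1 or 3D replicate 1 (edgeR adjusted p = 0.0851 and 0.0782). Both lines ended at nearly the same 3D level, 44.8 ± 2.29 and 44.3 ± 6.04 CPM. HCT116 held 127 ± 13.1 CPM in 2D and 126 ± 6.34 CPM in 3D (95% interval of the log2 fold change -0.32 to 0.29). LS174T held 303, 333 and 320.0 CPM in 2D and 355, 491 and 328 CPM in 3D, where replicate 2 stood apart from the other two 3D libraries and the difference did not pass the test (log2 fold change 0.30, SE 0.15, edgeR adjusted p = 0.152).

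SLC7A11 is the subunit of the cystine and glutamate exchanger that brings in cystine for glutathione synthesis. It fell in HT29 from 118, 88.1 and 149 CPM in 2D to 32.9, 63.9 and 64.6 CPM in 3D (log2 fold change -1.13, SE 0.21, edgeR adjusted p = 0.000173). It rose in LS513 from 26.3, 25.6 and 24.4 CPM to 46.9, 59.5 and 55.1 CPM (log2 fold change 1.08, SE 0.21, edgeR adjusted p = 0.000617). The libraries did not overlap between growth conditions in either line, and the 3D means of the lines were 53.8 ± 18.1 and 53.8 ± 6.38 CPM. In HCT116 the libraries overlapped, at 22.9, 30.5 and 21.05 CPM in 2D and 27.7, 23.3 and 25.4 CPM in 3D (95% interval of the log2 fold change -0.40 to 0.47). In LS174T, too, the 2D libraries at 46.3, 52.8 and 53.7 CPM and the 3D libraries at 36.7, 33.6 and 50.7 CPM overlapped (log2 fold change -0.34, SE 0.21, edgeR adjusted p = 0.251).

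**Figure D2:**
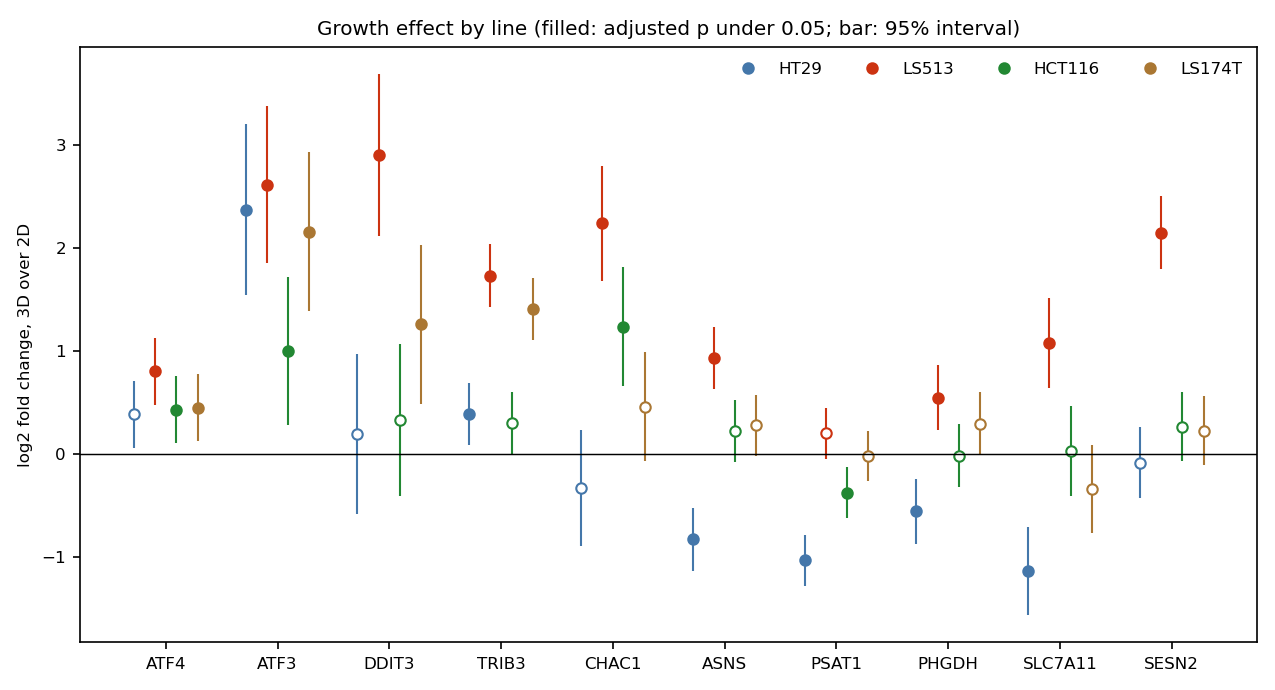
Log2 fold change of 3D over 2D for each of the 10 genes (horizontal axis) in each line (colour), with the 95% interval as a bar and filled points where the edgeR adjusted p is under 0.05. LS513 lies above 0 for every gene, up to 2.90 for DDIT3, and HT29 lies below 0 for ASNS, PSAT1, PHGDH and SLC7A11, down to -1.13.

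The growth effect differed between the 4 lines for 8 of the 10 genes by the edgeR interaction test, beside 17.1% of all tested genes. SESN2 had the smallest adjusted p of these tests (1.11e-06), with a log2 fold change of 2.15 in LS513 beside 0.26 in HCT116, 0.23 in LS174T and -0.08 in HT29. ATF4 and ATF3 were the genes for which no difference was shown. The 8 genes that differed were the transcription factor DDIT3, the stress effectors TRIB3, CHAC1 and SESN2, the enzymes ASNS, PSAT1 and PHGDH, and the transporter SLC7A11.

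Levels also differed between the lines within 1 growth condition. For each gene the lines were put in order of their mean and each line was compared with the next in order, which gave 30 pairs in 2D and 30 in 3D. In 2D 11 of the 30 pairs differed, and in 3D 13 did. The count in 2D was 19 without the filter on low counts and 20 in a fit of the 2D libraries alone. Neighbours in order are the closest lines for a gene, so these counts cannot be read directly against the share of all genes called between lines. In 2D the share of all genes called was 60.6% between HT29 and LS513, 68.8% between HT29 and HCT116, 64.6% between HT29 and LS174T, 68.3% between LS513 and HCT116, 57.6% between LS513 and LS174T, and 68.3% between HCT116 and LS174T. In 3D these shares were 61.9%, 68.5%, 65.5%, 68.5%, 60.9% and 67.2%. PHGDH was the gene with a difference at every step in 2D, from LS174T at 319 ± 15.3 CPM over HCT116 at 127 ± 13.1 and HT29 at 65.8 ± 11.7 down to LS513 at 30.3 ± 6.12 CPM (mean ± SD, n = 3). For ATF4, DDIT3, TRIB3 and CHAC1 no neighbours passed the test in 2D, but lines further apart in order did for each. ATF4 differed between LS513 and LS174T and DDIT3 between LS513 and HCT116 (edgeR adjusted p = 0.0179 and 0.0117). TRIB3 differed between LS513 and HCT116 and CHAC1 between HCT116 and LS174T (edgeR adjusted p = 0.00117 and 9.00e-06). SLC7A11 in 2D was highest in HT29, then LS174T, with LS513 and HCT116 not separated from each other, and SESN2 was highest in HCT116 and LS174T, not separated, then HT29 and then LS513. ASNS was not separated between LS174T and HT29 or between LS513 and HCT116, and the step between HT29 and LS513 passed the test. PSAT1 was highest in LS174T, then HCT116 and HT29, not separated, then LS513. ATF3 was highest in HCT116, and the steps below it did not pass the test, though HT29 was below LS513 (edgeR adjusted p = 0.00349).

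In 3D LS513 had the highest mean for ATF3, DDIT3, TRIB3, CHAC1 and SESN2, of which TRIB3 was also highest there in 2D. DDIT3 in LS513 (32.1 ± 17.2 CPM) differed from the next line, HCT116 (11.7 ± 0.754 CPM, edgeR adjusted p = 0.000897). The level of TRIB3 went down from LS513 at 428 ± 79.3 CPM to LS174T at 275 ± 45.8 CPM and then to HT29 at 130.1 ± 14.1 CPM, with both steps called, and HCT116 was not separated from HT29. CHAC1 had the order LS513, LS174T, then HCT116 and HT29 without a called step between them. For ATF4 and ATF3 no neighbours differed in 3D. Lines further apart did differ for ATF3, with HT29 below LS513 and HCT116 (edgeR adjusted p = 0.000252 and 0.00977). ATF3 was also higher in LS513 than in LS174T (edgeR adjusted p = 0.00717), while for ATF4 no pair of lines passed in 3D. HT29 was lowest or not separated from the lowest line for 9 of the 10 genes in 3D, all but SLC7A11.

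Within the 3D libraries of a line, the 3 transcription factors were highest in the same library. This was replicate 3 in HT29, replicate 2 in LS513, replicate 1 in HCT116 and replicate 2 in LS174T, for ATF4 and ATF3 in every line and for DDIT3 in every line. LS513 3D replicate 2 was the highest of its group for 9 of the 10 genes, HCT116 3D replicate 1 for 8 and LS174T 3D replicate 2 for 6, whereas the highest library in HT29 3D was replicate 4 for 5 genes and replicate 3 for 4. In HCT116 3D the step between the highest libraries of DDIT3 was small, at 12.2 and 12.1 CPM. In 2D the 3 transcription factors were also highest in the same library in HCT116 and in LS174T, replicate 3 in both, but not in HT29 or LS513. How many of all tested genes were highest in the same libraries was not counted. Neither the library shared by the 3 transcription factors nor the counts of 9, 8 and 6 therefore set the 10 genes apart. Compared with the 2D mean of its line, the single 3D libraries ranged from -1.84 on the log2 scale for SLC7A11 in HT29 replicate 1 to 3.55 for DDIT3 in LS513 replicate 2.

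**Figure D3:**
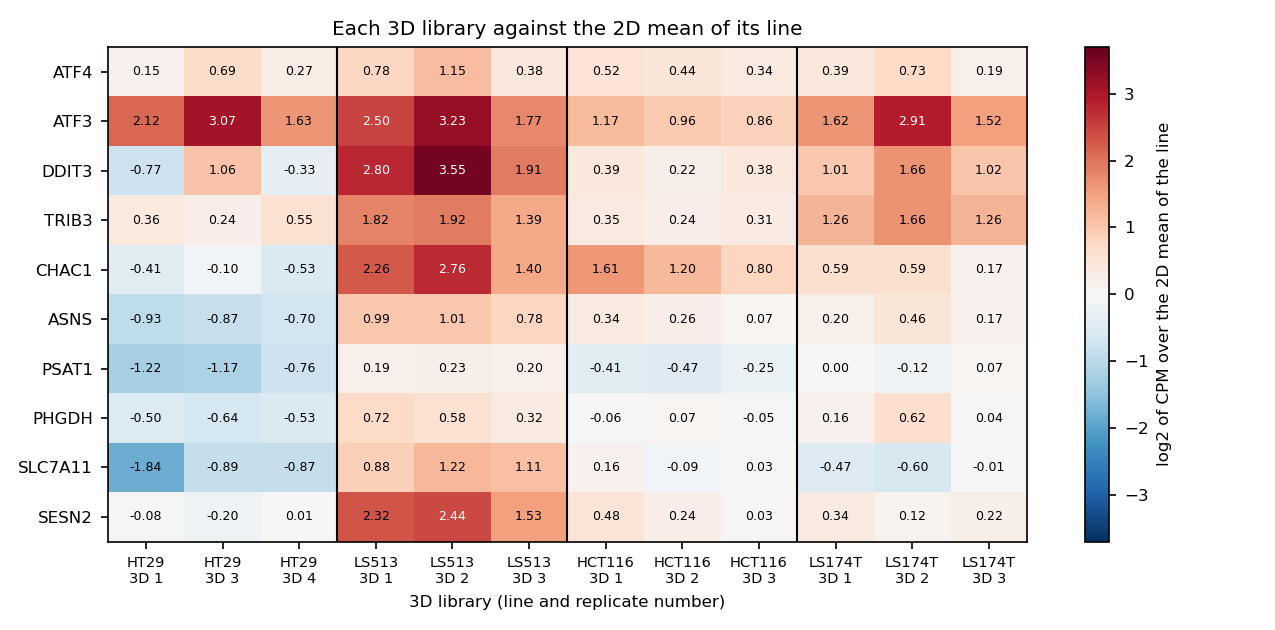
Log2 of the CPM in each of the 12 3D libraries (columns) over the 2D mean of its line for each of the 10 genes (rows), in red where higher and in blue where lower. ATF3 is above 0 in all 12 columns, the LS513 columns are above 0 in all rows, and the HT29 columns are below 0 for ASNS, PSAT1, PHGDH and SLC7A11.

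Over the 24 libraries, with each line centred on its own mean, the log2 levels of the 10 genes were compared in 45 pairs by Pearson's r, as a description only, since the libraries share lines and growth conditions. The median r was 0.60, 41 pairs were positive and 31 were above 0.5. ATF4 and ATF3 were the most alike, with r = 0.92, and ATF3 and PSAT1 the least, with r = -0.47. The 5 genes outside the group whose level followed the mean of the 10 most closely were AC137936.2 (r = 0.93), CARS1, the cysteinyl-tRNA synthetase (r = 0.92), IGFBP3 (r = 0.92), ADM2 (r = 0.92) and TMEM45A (r = 0.91), over the same 24 libraries. All 5 were called higher in 3D in LS513, but they did not move alike in every line. In HT29 AC137936.2 was called lower and the other genes were not called. CARS1, ADM2 and TMEM45A were called higher in HCT116, and IGFBP3 and TMEM45A in LS174T. CARS1 and ADM2 were also in the pathway lists, where ADM2 is counted among reported ATF4 targets.

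The response was followed further in 7 lists with 66 genes, of which 65 were tested and FGF21 was not. Upstream, the list of eIF2α kinases and phosphatases held 7 genes, and PPP1R15A was called higher in all 4 lines. PPP1R15A encodes GADD34, the subunit that directs a phosphatase to eIF2α, and it rose from 46.6 ± 3.696 CPM in 2D to 119.7 ± 57.5 CPM in 3D (log2 fold change 1.36, SE 0.31, edgeR adjusted p = 0.00134) in HT29 and from 28.6 ± 2.104 CPM in 2D to 84.5 ± 36.3 CPM in 3D (log2 fold change 1.56, SE 0.31, edgeR adjusted p = 0.00084) in LS513. In LS174T it rose from 27.1 ± 2.41 CPM in 2D to 81.5 ± 30.6 CPM in 3D (log2 fold change 1.59, SE 0.31, edgeR adjusted p = 0.0011), and in HCT116 from 39.7 ± 6.65 CPM in 2D to 72.3 ± 13.1 CPM in 3D (log2 fold change 0.86, SE 0.30, edgeR adjusted p = 0.0368). Its 3D libraries lay above its 2D libraries in every line. EIF2AK2, the kinase PKR that responds to double-stranded RNA, moved in both directions, with a log2 fold change of -0.70 (SE 0.18, edgeR adjusted p = 0.00344) in HT29 and -0.64 (SE 0.18, edgeR adjusted p = 0.0137) in LS174T, but 0.64 (SE 0.18, edgeR adjusted p = 0.00931) in HCT116. In LS513 it did not pass the test, at -0.48 (SE 0.18, edgeR adjusted p = 0.056). The whole list had 1 gene higher and 3 lower in HT29, 1 and 0 in LS513, 2 and 1 in HCT116, and 1 and 2 in LS174T, with medians between -0.28 and 0.02. Over all tested genes, 21.1% were called higher and 19.6% lower in HT29, 13.7% and 9.9% in LS513, 16.8% and 12.3% in HCT116, and 13.1% and 9.15% in LS174T, and most of these counts out of 7 lie near such shares.

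The list of 5 ATF4 partners and related bZIP factors had 1 gene higher in HT29, LS513 and LS174T and 0 in HCT116. Of all tested genes, 21.1%, 13.7%, 13.1% and 16.8% were called higher in these lines, so that 1 of 5 lies near the background. In HT29 3 genes of the list were lower, where 19.6% of all tested genes were lower. CEBPG, a C/EBP protein that pairs with ATF4, rose in LS513 from 78.02 ± 3.67 CPM in 2D to 105 ± 2.298 CPM in 3D (log2 fold change 0.43, SE 0.07, edgeR adjusted p = 0.000168). NUPR1, a small stress-induced chromatin protein, rose in LS174T from 62 ± 15.5 CPM in 2D to 105 ± 26.5 CPM in 3D (log2 fold change 0.76, SE 0.21, edgeR adjusted p = 0.0125). In HT29 NUPR1 was called higher from a 2D group that held a library with 0 counts, at 0.0959 CPM in 2D and 2.13 CPM in 3D. JDP2, a repressor of the same family, fell in HT29 from 8.95 ± 1.46 CPM in 2D to 4.96 ± 0.644 CPM in 3D (log2 fold change -0.84, SE 0.18, edgeR adjusted p = 0.000633).

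Amino acid transporters and most tRNA synthetases were lower in 3D in HT29. All 8 transporters of the list were called lower in HT29, with a median log2 fold change of -0.74 and none higher, whereas LS513 had 2 higher and 1 lower, and HCT116 and LS174T each had 0 higher and 1 lower. Beside these stand 19.6% of all tested genes called lower in HT29, 13.7% higher and 9.9% lower in LS513, 12.3% lower in HCT116 and 9.15% lower in LS174T, so that the counts outside HT29 lie near the background. SLC6A9, a glycine transporter, had the largest fall, from 9.51 ± 2.24 CPM in 2D to 3.63 ± 0.815 CPM in 3D (log2 fold change -1.39, SE 0.17, edgeR adjusted p = 1.64e-06). SLC3A2, the heavy chain that SLC7A11 and SLC7A5 pair with, rose in LS513 from 148 ± 4.98 CPM in 2D to 248 ± 54.9 CPM in 3D (log2 fold change 0.74, SE 0.16, edgeR adjusted p = 0.00173). Of the 12 cytosolic tRNA synthetases, which load amino acids onto tRNA, 10 were lower and 0 higher in HT29 and 7 were higher and 0 lower in LS513, with medians of -0.44 and 0.27, where 19.6% of all tested genes were lower in HT29 and 13.7% higher in LS513. HCT116 had 2 higher and 4 lower, beside 16.8% and 12.3% of all tested genes, and LS174T had 0 called in either direction. IARS1, for isoleucine, fell in HT29 from 502 ± 2.25 CPM in 2D to 297 ± 32.1 CPM in 3D (log2 fold change -0.76, SE 0.09, edgeR adjusted p = 9.20e-07). CARS1 rose in LS513 from 69.5 ± 3.42 CPM in 2D to 113 ± 12.5 CPM in 3D (log2 fold change 0.71, SE 0.10, edgeR adjusted p = 3.01e-05).

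The other lists moved less uniformly. The list of 11 serine, one-carbon, proline and transsulfuration enzymes had medians between -0.08 and 0.08, with 2 higher and 2 lower in HT29, 3 and 0 in LS513, 1 and 1 in HCT116 and 1 and 0 in LS174T. These counts out of 11 lie near the shares of all tested genes, except 3 higher in LS513, where the share was 13.7%. Among them SHMT2, the mitochondrial enzyme that turns serine into glycine, rose in LS174T from 311 ± 12.9 CPM in 2D to 677 ± 73.8 CPM in 3D (log2 fold change 1.12, SE 0.09, edgeR adjusted p = 6.26e-09), and CTH, which makes cysteine from cystathionine, rose in LS513 from 9.65 ± 0.534 CPM in 2D to 19.99 ± 1.92 CPM in 3D (log2 fold change 1.05, SE 0.14, edgeR adjusted p = 6.32e-06). MTHFD1L fell in HT29 from 67.01 ± 3.52 CPM in 2D to 38.8 ± 3.78 CPM in 3D (log2 fold change -0.79, SE 0.08, edgeR adjusted p = 6.04e-08). The list of other reported ATF4 targets, 12 of them tested, had 4 higher and 1 lower in HT29, 6 and 1 in LS513, 8 and 1 in HCT116, and 6 and 0 in LS174T, with medians of -0.04, 0.71, 0.97 and 0.93. The shares of all tested genes called higher were 21.1%, 13.7%, 16.8% and 13.1% in these lines, and those called lower 19.6%, 9.9%, 12.3% and 9.15%. Which signals moved the genes of this list was not tested. DDIT4, an inhibitor of growth signalling that also responds to hypoxia, rose in HCT116 from 33.6 ± 5.89 CPM in 2D to 249 ± 52.7 CPM in 3D. Its log2 fold change there was 2.89 (SE 0.27, edgeR adjusted p = 5.72e-08). GDF15, a secreted stress cytokine, rose in HT29 from 13.6 ± 2.59 CPM in 2D to 74.5 ± 12.1 CPM in 3D (log2 fold change 2.47, SE 0.24, edgeR adjusted p = 7.58e-08) and in LS174T from 65.7 ± 10.4 CPM in 2D to 253 ± 119 CPM in 3D (log2 fold change 1.95, SE 0.23, edgeR adjusted p = 2.46e-06). XPOT, which exports tRNA from the nucleus, fell in HT29 from 329.8 ± 17.9 CPM in 2D to 178 ± 18.3 CPM in 3D (log2 fold change -0.89, SE 0.12, edgeR adjusted p = 5.00e-06).

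Endoplasmic reticulum chaperones and related genes, which belong mostly to the other arms of the unfolded protein response, were compared as a neighbouring pathway. Whether ATF4 moved any of them was not tested. Of 10, 5 were lower and 1 higher in HT29, 2 were higher and 0 lower in LS513, 3 and 0 in HCT116 and 1 and 1 in LS174T, with medians between -0.35 and 0.11. Beside the 5 lower in HT29 stand 19.6% of all tested genes, and beside those higher in LS513 and HCT116 stand 13.7% and 16.8%, so that the counts of 1 and 2 lie near the background. HSPA5, the main chaperone of the endoplasmic reticulum, fell in HT29 from 916 ± 87.5 CPM in 2D to 524 ± 11.4 CPM in 3D (log2 fold change -0.81, SE 0.11, edgeR adjusted p = 3.66e-06). HERPUD1, which serves in the degradation of misfolded proteins, rose in LS513 from 44.97 ± 2.68 CPM in 2D to 91.4 ± 25.03 CPM in 3D (log2 fold change 1.02, SE 0.15, edgeR adjusted p = 1.93e-05), and XBP1 rose in HCT116 from 55.6 ± 7.095 CPM in 2D to 79.03 ± 6.04 CPM in 3D (log2 fold change 0.51, SE 0.12, edgeR adjusted p = 0.00347).

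**Figure D4:**
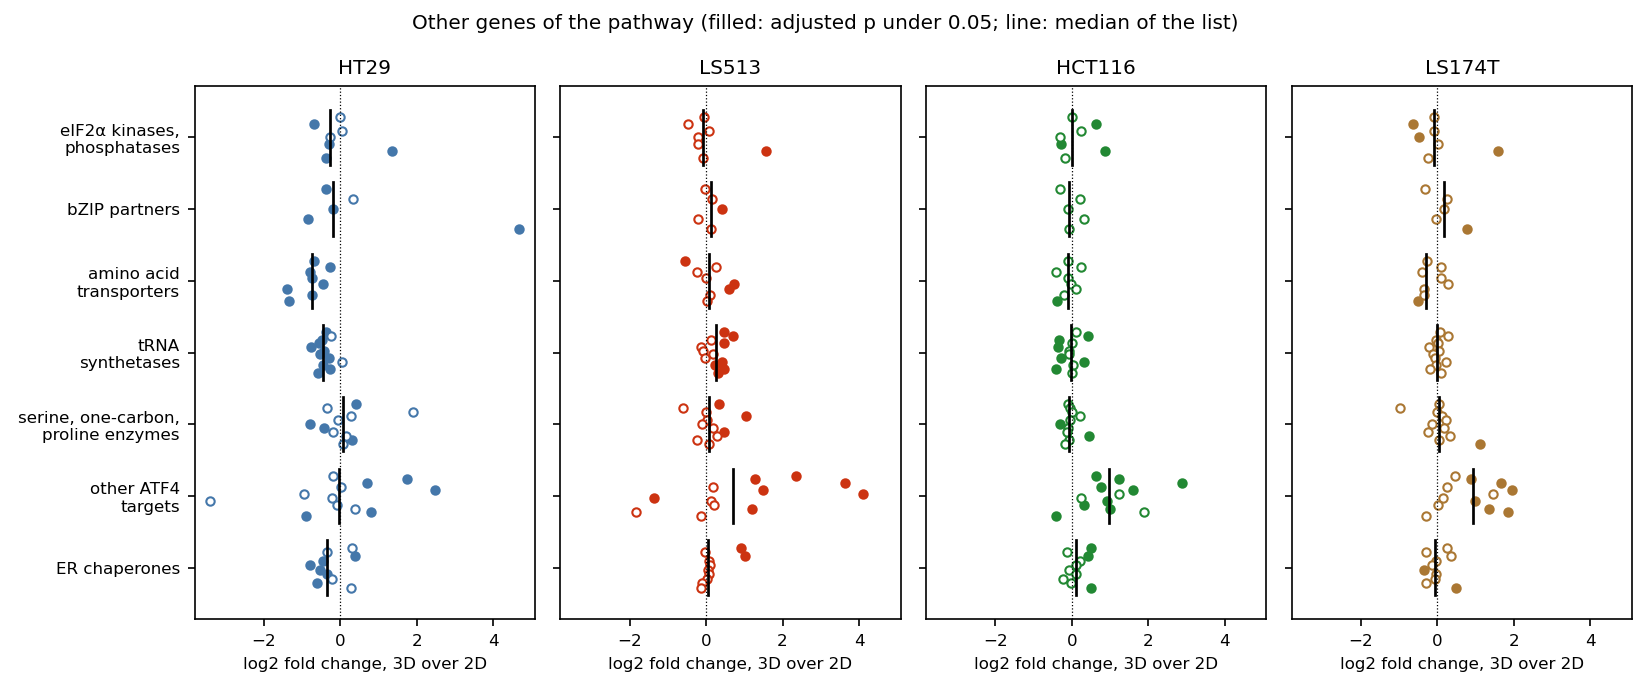
Log2 fold change of 3D over 2D for each tested gene of the 7 lists (rows), with 1 panel per line, filled points where the edgeR adjusted p is under 0.05 and a vertical line at the median of the list. All 8 amino acid transporters lie below 0 in HT29, and most tRNA synthetases lie below 0 in HT29 and above 0 in LS513.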

How the data were processed

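RNA sequencing of 24 libraries was deposited by the authors as raw counts per gene, without normalization, with a table for each technical replicate, and 191 of these tables were used here. The submitters' processing notes name bcl2fastq 2.18.0.12, Trim Galore 0.4.1, STAR, HTSeq 0.5.3 and hg19, while the study's methods name Ensembl 91, which is a GRCh38 annotation. Of the 58243 identifiers, 57980 are in GENCODE 29, which gave names, positions and lengths. Reads aligned more than once had been removed by the authors, so counts of genes with close copies can be too low. Groups and replicate numbers come from the sample labels. HT29 3D replicate 4 was used with 7 technical replicates, the others with 8, and technical replicate d of HT29 3D replicate 4 was not analysed here. The technical replicates of a library were added up, since they differed by no more than counting error (median chi-square per degree of freedom 0.906 to 0.933).

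edgeR 4.0.16 in R 4.3.3 was used on these sums, with filterByExpr, TMM and a robust quasi-likelihood fit with 1 coefficient per group. SE and 95% intervals come from the same fit. The fold threshold of the study was not used. The interaction test compares the growth effect over the 4 lines at once. Alternatives were DESeq2 1.42.0, its size factors, all genes with at least 1 count, only the libraries of a line or growth condition, dropping technical replicate d everywhere, a replicate block, and leaving out each library in turn. With 3 against 3 libraries an exact permutation test cannot go below p = 0.1, so none is given. The floor of 3 counts covers counting error only. The 10 genes and the pathway lists were chosen with earlier results of these data known, and no list was tested as a set. Named beside the 10 genes are, for each list and line, the called gene with the largest rise and the one with the largest fall, of which a part is printed, and the 5 genes most like the mean of the 10. CPM per kilobase uses the exonic bases of all transcripts. The scripts were tested on simulated data.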

Additional observations from a re-analysis of the deposited data

Results flagged for a closer look

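The change from 2D to 3D differed between the 4 lines for 8 of the 10 genes, beside 17.1% of all tested genes. These calls come from the edgeR interaction test with Benjamini-Hochberg adjustment over all tested genes. The 10 genes were chosen with earlier results of these data known, so the count is descriptive. Among the stress effectors, the adjusted p was 1.11e-06 for SESN2, 1.68e-05 for TRIB3 and 0.000198 for CHAC1. All 3 had their largest log2 fold change in LS513, at 2.15, 1.73 and 2.24, with 3 of 3 libraries in 3D above those in 2D. For DDIT3 the adjusted p was 0.00191, with log2 fold changes from 0.20 in HT29 to 2.90 in LS513.

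For the enzymes the adjusted p was 1.55e-05 for ASNS, 5.72e-05 for PSAT1 and 0.00351 for PHGDH, and for the transporter SLC7A11 it was 7.86e-05. ASNS, PHGDH and SLC7A11 were lower in 3D in HT29, at -0.83, -0.55 and -1.13 on the log2 scale, and higher in LS513, at 0.93, 0.55 and 1.08, in each case without overlap between libraries. PSAT1 was lower in HT29, at -1.03, and did not pass the test in LS513, at 0.20.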

How the results depend on the processing

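Of the 23 calls of a gene in a line, 15 held under all 12 alternatives tried for them, and no called value moved by more than 1.5-fold. With a block for line and replicate number, the count of genes higher in HT29 was 1 in place of 2, as TRIB3 was lost (log2 fold change 0.16, adjusted p = 0.523), and ATF4 was lost in HCT116 and LS174T (adjusted p = 0.0742 and 0.0873). With only the libraries of the line, ATF4 was lost in LS174T (adjusted p = 0.0936) and passed in HT29 (adjusted p = 0.0299), and with all genes of at least 1 count ATF4 in HT29 and CHAC1 in LS174T passed (adjusted p = 0.00129 and 0.0452). Whether libraries with the same number belong together is not stated. The deviations of 11 same-numbered pairs correlated between -0.20 and 0.17, and 2 of them were over 0.1. With so few libraries per group, these values cannot settle whether the libraries were paired. The count of neighbouring lines that differed in 2D, 11, was 19 with all genes of at least 1 count and 20 with only the libraries of the growth condition, and the cause was not tested. Leaving out 1 library at a time, the genes called higher numbered 1 to 3 in HT29, 8 to 9 in LS513, 1 to 2 in HCT116 and 2 to 5 in LS174T, and those called lower 3 to 4, 0 to 0, 0 to 1 and 0 to 0. The differing neighbours numbered 10 to 14 in 2D and 12 to 16 in 3D, and the genes whose growth effect differed between lines 8 to 9. In HCT116 the higher count fell to 1 without any library but 2D replicate 3, and in LS174T it fell to 2 without any 2D library or 3D replicate 2. Over all tested genes these refits called 6372 to 7124 in HT29, 2784 to 5221 in LS513, 3747 to 5986 in HCT116 and 2083 to 6038 in LS174T, beside 7887, 4571, 5637 and 4305.

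Signs that changed when a library was left out belonged to log2 fold changes that had not passed the threshold. These were DDIT3 in HT29 (-0.50 to 0.55, below 0 without 3D replicate 3), SESN2 in HT29 (-0.17 to 0.0434, above 0 without 2D replicate 1 or 3D replicate 3), SLC7A11 in HCT116 (-0.0987 to 0.21, below 0 without 2D replicate 1, 2D replicate 3 or 3D replicate 1), PHGDH in HCT116 (-0.0918 to 0.0298, above 0 without 2D replicate 3) and PSAT1 in LS174T (-0.0735 to 0.0439, above 0 without 2D replicate 2, 2D replicate 3 or 3D replicate 2).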
